A study of Danio rerio with 1152 samples.

Results

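Wells of zebrafish (Danio rerio) embryos that held transcripts of both SOX3 and TA are described here. They were 71, 32 and 73 wells of batches 1, 2 and 3, 17.6% of the 1000 wells that were kept. A well was kept with at least 2000 detected genes, and it counted as co-expressing with at least 10 UMIs of SOX3 and at least 1 UMI of TA per 10000 UMIs of the well. UMIs (unique molecular identifiers) are random tags that mark single cDNA molecules. The co-expressing wells were set against TA-only wells (31, 49 and 71 by batch), with TA at 1 or more and SOX3 under 5 per 10000, and against 396 SOX3-only wells, with SOX3 at 10 or more and no UMI of TA. Gene symbols are given in capitals, as in the deposited table.

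SOX3 is a SoxB1 transcription factor of the early ectoderm, where members of its family keep cells competent to become neural. TA (no tail a) is a zebrafish Brachyury, a T-box transcription factor of the margin, the ring at the blastoderm edge that forms mesoderm and endoderm, and later of the notochord and tail bud. A SoxB1 factor and a Brachyury in the same cell mark the neuromesodermal progenitors of the vertebrate tail bud, which can give rise to spinal cord or to mesoderm. Whether the wells described here hold such progenitors was not tested.

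The series held 1152 wells, each meant to contain a single cell, in 3 experimental batches of wild-type embryos from in-crosses of TL/AB fish, all untreated and all at 50% epiboly (about 6 hours after fertilization). Blastoderm caps were freed of yolk by hand and single cells were picked, per the labels' protocols. The classes were formed from measured SOX3 and TA, so that no group carries a different genotype or treatment, and wells rather than lineages were compared. The batch was the replicate (n = 3) and a block in the tests, so p-values measure only how far class differences varied between batches. The labels do not say that batches came from separate clutches, and that spread may be technical.

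Depth bears on a class that needs 2 transcripts at once. Totals of kept wells ran from 5307 to 132749 UMIs. Co-expressing wells had a median of 57602, 64952 and 41113 UMIs in batches 1, 2 and 3, against 57132, 45578 and 35617 in TA-only and 56591, 58612.5 and 32790 in SOX3-only wells. They also had more detected genes, with medians of 3858, 3630.5 and 3456 by batch, against 3595, 3293 and 3209 in TA-only and 3540, 3174.5 and 3012 in SOX3-only wells. More than 5000 genes were detected in 14 co-expressing wells (9 in batch 1, 1 in batch 2 and 4 in batch 3), in 6 SOX3-only wells and in 0 TA-only wells. A co-expressing well of batch 1 and another of batch 2 agreed more closely than sampling noise would give (chi-square 0.50 per degree of freedom over 2191 genes). Noise alone would give about 1, and the next closest pair of wells had 1.09. The pair after that, within batch 1, held a co-expressing well and a well outside the 3 classes, at 1.35. Further close pairs also held co-expressing wells, and only the closest pair was left out as a check. Whether these wells of batches 1 and 2 are the same library was not tested. Leaving out both wells of the closest pair gave 30 genes higher than in SOX3-only wells in place of 31. It gave 45 higher and 97 lower than in TA-only wells in place of 46 and 97. The 3 calls lost against TA-only wells were those of PNX, MCM6 and ZNF703, genes described below.

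**Figure D1:**
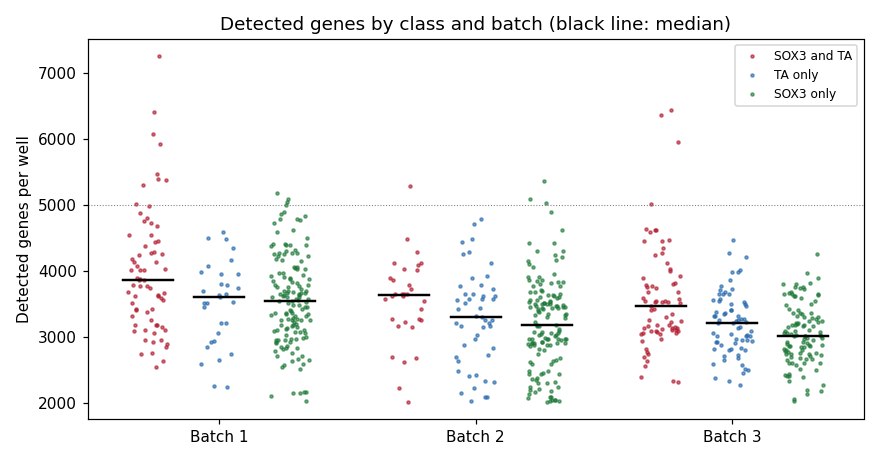
Detected genes per well (vertical axis, number of genes with at least 1 UMI) for co-expressing, TA-only and SOX3-only wells in each of the 3 batches. Each point is a well, the black line is the median of a class in a batch, and the dotted line marks 5000 genes. Co-expressing wells have the highest median in every batch and 14 wells above the line.

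The values that chose the wells are given as a description. Within the co-expressing wells SOX3 ran from 10.1 to 44.97 UMIs per 10000 with a median of 18.99, and TA from 1.00 to 13.5 with a median of 2.01. Behind these levels stood 2 to 66 UMIs of TA per well, with a median of 10. Summed over the wells of a batch, SOX3 stood at 19.5, 16.9 and 19.5 UMIs per 10000 in batches 1, 2 and 3, against 21.04, 21.9 and 22.5 in SOX3-only wells. TA stood at 2.49, 2.44 and 2.65 in co-expressing wells against 4.77, 8.26 and 5.92 in TA-only wells. Co-expressing wells therefore held SOX3 somewhat below SOX3-only wells and TA well below TA-only wells in every batch.

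Neither threshold fell in a gap. Among TA-containing wells the nearest SOX3 values on either side of 10 were 9.92 and 10.1 per 10000, and among SOX3-containing wells the nearest TA values on either side of 1 were 0.990 and 1.00. Just inside, 19 members had SOX3 under 12 and 46 had TA under 1.5 per 10000. Just outside, 22 TA-containing wells had SOX3 between 8 and 10, and 18.1% of the wells with SOX3 at 10 or more had TA above 0 but under 1. Of the TA-only wells 32 had no UMI of SOX3.

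**Figure D2:**
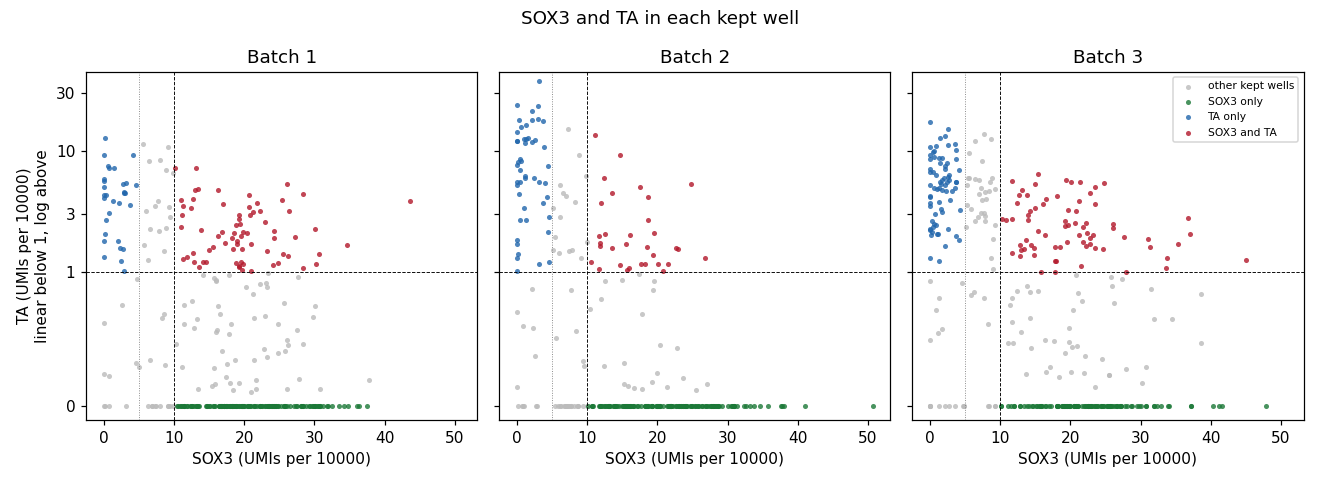
SOX3 (horizontal axis, UMIs per 10000) against TA (vertical axis, UMIs per 10000, linear below 1 and logarithmic above) in each kept well, with 1 panel per batch. Dashed lines mark the thresholds of 10 for SOX3 and 1 for TA, and the dotted line marks 5 for SOX3. The co-expressing wells grade into their neighbours at both thresholds.

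Co-expressing wells made up 17.6% of the 1000 kept wells (Wilson 95% interval 15.4 to 20.1, which covers counting error only). Batches 1 and 3 had near-equal shares of 20.5% (16.6 to 25.02) and 20.4% (16.6 to 24.9). Batch 2 was the low one, with 10.8% of its kept wells (7.76 to 14.9). Of the TA-containing wells 44.9% were co-expressing (40.05 to 49.9), with 59.7%, 32.99% and 41.5% in batches 1, 2 and 3. Among the 4 plates named for batch 1, 21.9%, 25.3%, 12.8% and 21.7% of kept wells were co-expressing on plates 5, 6, 7 and 8. SOX3 at 10 or more was itself common, and 88.2% of wells without TA had it.

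Levels of other genes were compared after summing UMIs over the wells of a class and batch, and are given as UMIs per 10000 of that sum. Differences are log2 differences with their SE from edgeR's quasi-likelihood test with batch as a block, and a gene was called with a Benjamini-Hochberg adjusted p under 0.05 over 8189 genes. Because SOX3 and TA formed the classes, these differences describe what goes with SOX3 and TA in the same wells, and SOX3 and TA were not tested. Against TA-only wells, 46 genes were higher (0.562%) and 97 lower (1.18%) in the co-expressing wells. Against SOX3-only wells, 31 genes were higher (0.379%) and 0 were lower by edgeR. These shares over all tested genes are the background for the list counts below, and some genes stand in several lists. At an unadjusted p under 0.05, 2.02% of the tested genes were higher and 1.31% lower than in SOX3-only wells. Other tools called 1 lower gene (DESeq2) and 0 (limma), and that gene, SHISA2, named here because the tools differed over it, stood at 12.6, 13.9 and 12.5 against 17.5, 16.5 and 16.3 in SOX3-only wells.

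Both comparisons use the same co-expressing sums, and the counts shift with the wells used. Without wells over 5000 genes, 17 genes were higher than in SOX3-only wells. Leaving out wells with high keratin levels (enveloping-layer-like, below) left 11. With TA held to 1 to under 3 UMIs per 10000, in 51, 24 and 51 co-expressing wells by batch, MIXL1 was the 1 gene that was still higher, and leaving out batch 3 left 8 genes. Against TA-only wells, 19 genes were higher without batch 1, and 17 higher and 52 lower without batch 3. Where a call below was lost without the wells over 5000 genes, this is said beside it.

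The T-box and homeobox genes of the margin lay between both references. All 5 tested members of that list (EVE1, MIXL1, NOTO, TBX16 and TBX6) had levels between those of SOX3-only and TA-only wells in all 3 batches, which 5.47% of all tested genes did. Most genes called higher in TA-only than in SOX3-only wells did so too. Lying between both references therefore does not by itself set this list apart from those genes. Of the 5, 4 were called higher than in SOX3-only wells (median log2 difference of the list 1.35, against -0.0069 over all tested genes) and 4 lower than in TA-only wells (median -1.08, against 0.0047). TBX6 was not called against SOX3-only wells, and NOTO was not called against TA-only wells.

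EVE1, an even-skipped homeobox gene of the ventrolateral margin, stood at 4.32, 2.18 and 5.27 UMIs per 10000 in the co-expressing wells of batches 1, 2 and 3. Its levels were 1.22, 0.570 and 1.87 in SOX3-only and 7.09, 6.89 and 9.46 in TA-only wells. The 3 classes did not overlap, and batch 2 was lowest in each. EVE1 was 3.34-fold higher than in SOX3-only wells (log2 difference 1.74, SE 0.18, adjusted p 0.000213, edgeR) and 2.12-fold lower than in TA-only wells (-1.08, SE 0.18, adjusted p 0.00226). With TA at 1 to under 3, the difference from SOX3-only wells was 1.47 and no longer called (adjusted p 0.102).

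NOTO (floating head), a homeobox gene needed for the notochord, stood at 2.31, 3.82 and 2.17 UMIs per 10000 in co-expressing wells. It stood at 2.68, 4.46 and 3.55 in TA-only wells and at 1.04, 1.01 and 1.11 in SOX3-only wells. Its levels overlapped those of TA-only wells and lay above every value of SOX3-only wells. The difference from SOX3-only wells was 1.35 (SE 0.17, adjusted p 0.00115, edgeR), and that from TA-only wells was -0.37 (SE 0.17, adjusted p 0.447). A UMI of NOTO was present in 75% of co-expressing, 68.9% of TA-only and 46.5% of SOX3-only wells. With every well thinned to 10000 UMIs the shares were 60.2%, 60.7% and 34.9%.

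TBX16 (spadetail), a T-box factor of paraxial mesoderm, had little spread, with 2.20, 2.55 and 2.42 UMIs per 10000 in co-expressing wells. It stood at 1.40, 1.94 and 1.46 in SOX3-only and at 4.71, 5.47 and 4.60 in TA-only wells. It was 1.5-fold higher than in SOX3-only wells (log2 difference 0.59, SE 0.11, adjusted p 0.0368, edgeR), a call lost without the wells over 5000 genes (0.59, adjusted p 0.0632). MIXL1, a Nodal-induced homeobox gene of mesendoderm, stood at 0.619, 0.728 and 0.932 in co-expressing wells, 6.75, 7.21 and 6.67 in TA-only wells and 0.254, 0.0829 and 0.170 in SOX3-only wells. MIXL1 was 9.17-fold below TA-only wells (adjusted p 1.45e-06, edgeR) and 4.54-fold above SOX3-only wells (adjusted p 0.000713). TBX6 had means of 0.258 ± 0.141 UMIs per 10000 in co-expressing, 1.1 ± 0.443 in TA-only and 0.108 ± 0.0493 in SOX3-only wells (SD, n = 3).

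**Figure D3:**
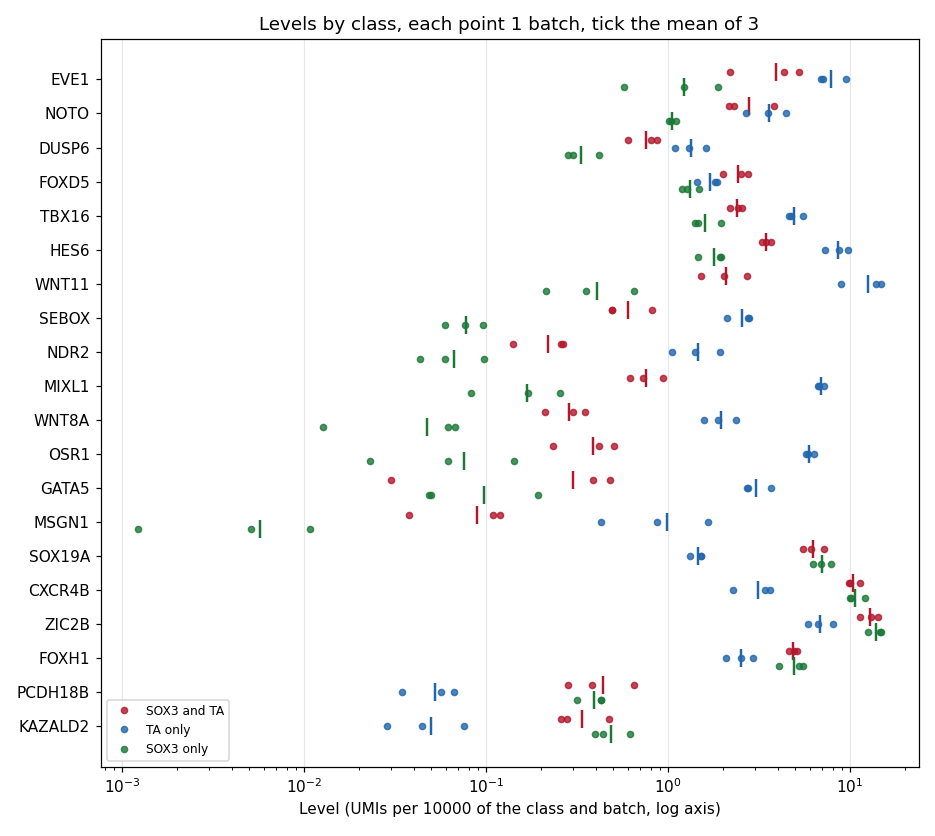
Levels of 20 named genes (horizontal axis, UMIs per 10000 of the class and batch, logarithmic) in co-expressing, TA-only and SOX3-only wells. Each point is 1 batch and each vertical tick the mean of 3. Genes from EVE1 to NDR2, apart from FOXD5, have co-expressing values between the 2 references in every batch, and SOX19A to KAZALD2 have co-expressing means closer to the SOX3-only than to the TA-only mean.

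Paraxial mesoderm genes were present at low levels. Of 15 tested members, 9 were lower than in TA-only wells and 0 higher (median log2 difference -1.98), and 4 were higher than in SOX3-only wells and 0 lower (median 1.11). HES6, a Hairy-related repressor of the segmentation clock, stood at 3.44, 3.29 and 3.67 UMIs per 10000 in co-expressing wells, 9.71, 7.31 and 8.68 in TA-only and 1.96, 1.47 and 1.93 in SOX3-only wells. No class overlapped another, and HES6 was 1.95-fold above SOX3-only wells (adjusted p 0.000241, edgeR) and 2.45-fold below TA-only wells (adjusted p 1.91e-06). OSR1, an odd-skipped mesoderm gene, stood at 0.233, 0.419 and 0.504 in co-expressing against 5.74, 6.30 and 5.84 in TA-only wells, a 15.8-fold difference (adjusted p 9.3e-06).

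OSR1 was also called against SOX3-only wells, where it stood at 0.143, 0.0229 and 0.0620 (log2 difference 2.30, SE 0.42, adjusted p 0.0243, edgeR). This call was lost in 9 of 17 alternatives, without batch 2 and without batch 3 among them. It was also lost without the wells over 5000 genes (2.09, adjusted p 0.0713, edgeR). MSGN1 (mesogenin), a presomitic mesoderm regulator, stood at 0.0377, 0.120 and 0.109 UMIs per 10000 in co-expressing, 0.866, 0.426 and 1.65 in TA-only and 0.00122, 0.0051 and 0.0108 in SOX3-only wells. It was 11.04-fold below the former reference and 15.9-fold above the latter (adjusted p 0.000478 and 0.00955, edgeR). Only 17 co-expressing wells had a UMI of MSGN1 (9.66%), against 43.7% of TA-only and 1.01% of SOX3-only wells. PCDH8 (paraxial protocadherin), which acts in gastrulation movements, was 7.31-fold above SOX3-only wells (0.117 ± 0.0329 against 0.0169 ± 0.0087, SD, n = 3, adjusted p 0.0218, edgeR). That call was lost in 9 of 17 alternatives, with every batch left out in turn among them.

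Other mesoderm genes passed only against TA-only wells. MESPAB, a bHLH factor of the presomitic mesoderm, was 16.3-fold lower in co-expressing wells (0.107 against 1.69 UMIs per 10000), the forkhead gene FOXC1A 27.3-fold lower (0.0118 against 0.301) and the apelin receptor gene APLNRB 7.30-fold lower (0.782 against 5.58), each by edgeR with adjusted p 0.000255, 0.00342 and 4.65e-07. APLNRB was 1.69-fold higher than in SOX3-only wells without a call (adjusted p 0.299). FOXC1A stood at 0.0118 in co-expressing and 0.0066 in SOX3-only wells, without a call. A UMI of FOXC1A was present in only 9 co-expressing wells.

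Nodal signals from the margin induce mesendoderm, and Lefty proteins antagonise them. Of 16 tested genes of the Nodal list, 8 were lower and 1 higher than in TA-only wells (median log2 difference -1.55), and 4 were higher and 0 lower than in SOX3-only wells (median 0.93). The ligand gene NDR2 (cyclops) stood at 0.257, 0.140 and 0.263 UMIs per 10000 in co-expressing wells, against 1.41, 1.05 and 1.92 in TA-only and 0.0975, 0.0433 and 0.0593 in SOX3-only wells. It was 6.71-fold below TA-only and 3.22-fold above SOX3-only wells (adjusted p 1.57e-05 and 0.0144, edgeR). The NDR2 call against SOX3-only wells was lost in 10 of 17 alternatives, with every batch left out in turn among them. The ligand gene NDR1 (squint) was 12.2-fold below TA-only wells (adjusted p 0.00122), and its level of 0.0908 ± 0.0443 was not called against the 0.0197 ± 0.0273 of SOX3-only wells (SD, n = 3, adjusted p 0.364).

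The antagonist LFT1 was 15.7-fold below TA-only wells (0.0454 against 0.696 UMIs per 10000, adjusted p 0.00151, edgeR). SEBOX, a homeobox gene of mesendoderm, stood at 0.490, 0.818 and 0.491 in co-expressing, 2.78, 2.73 and 2.11 in TA-only and 0.0963, 0.0765 and 0.0593 in SOX3-only wells. With an adjusted p of 2.42e-05 (edgeR) it had the smallest among genes higher than in SOX3-only wells (log2 difference 2.92, SE 0.24). FSCN1A (fascin), an actin-bundling protein gene, was 1.55-fold above SOX3-only wells (adjusted p 0.0368), a call lost without the wells over 5000 genes. FOXH1, the maternal cofactor of Nodal-activated Smads, was the 1 list member higher than in TA-only wells, with 4.94, 4.60 and 5.12 against 2.52, 2.93 and 2.08 (1.95-fold, adjusted p 0.00065).

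Of 8 tested endoderm genes, 4 were lower and 1 higher than in TA-only wells, and NDR2 was the 1 higher than in SOX3-only wells (median log2 differences -2.42 and 0.91). GATA5, a zinc-finger factor of endoderm and heart, stood at 0.389, 0.0299 and 0.479 UMIs per 10000 in co-expressing wells and at 2.72, 2.74 and 3.68 in TA-only wells (12-fold lower, adjusted p 0.000293, edgeR). Its values overlapped the 0.194, 0.0497 and 0.0485 of SOX3-only wells. The forkhead genes FOXA3 (4.29-fold lower, 0.655 against 2.78) and FOXA (17.5-fold lower, 0.0342 against 0.530) were called against TA-only wells as well. The exception was CXCR4A, a chemokine receptor gene of endodermal and other migrating cells, which stood at 10.2, 10.7 and 11.3 in co-expressing wells, 4.89, 3.58 and 6.84 in TA-only and 12.1, 11.4 and 10.9 in SOX3-only wells. It was 2.15-fold above TA-only wells (adjusted p 0.000223).

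Wnt ligands of the margin pattern mesoderm and promote posterior fates. Of 20 tested Wnt genes, 7 were lower and 2 higher than in TA-only wells (median log2 difference -1.37), and 4 were higher and 0 lower than in SOX3-only wells (median 0.92). WNT11, a ligand that directs convergence and extension movements, stood at 2.71, 2.02 and 1.52 UMIs per 10000 in co-expressing wells, 13.8, 14.7 and 8.91 in TA-only and 0.647, 0.214 and 0.353 in SOX3-only wells. The classes did not overlap. WNT11 was 5.31-fold above SOX3-only wells (adjusted p 7.59e-05, edgeR) and 6.10-fold below TA-only wells (adjusted p 2.19e-06).

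WNT8A, a ligand that acts in ventrolateral mesoderm, stood at 0.210, 0.349 and 0.299 UMIs per 10000 in co-expressing, 1.88, 2.37 and 1.58 in TA-only and 0.0670, 0.0127 and 0.0620 in SOX3-only wells. It was 6.18-fold above SOX3-only wells (adjusted p 0.0139, edgeR). The entry WNT8-2 had nearly the same levels (0.269, 2.01 and 0.0441 as class means) and may share reads with WNT8A, so that both entries, which are counted separately in the list counts, may be 1 result. The secreted Wnt antagonist gene DKK1B was 11.02-fold below TA-only wells (0.359 against 3.71, adjusted p 1.14e-05) and 3.47-fold above SOX3-only wells (0.106, adjusted p 0.0368), the latter a call lost without the wells over 5000 genes. The 2 genes higher than in TA-only wells were the antagonist SFRP1A (1.64 against 0.660) and the repressor TCF7L1A (0.944 against 0.439), both near their SOX3-only levels of 1.75 and 1.05.

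FGF signalling acts with TA in the mesoderm of the fish margin. Of 17 tested FGF genes, 5 were lower and 1 higher than in TA-only wells (median log2 difference -0.79), and 1 was higher than in SOX3-only wells (median 0.38). That gene was DUSP6, a feedback phosphatase of FGF signalling, at 0.867, 0.603 and 0.809 UMIs per 10000 in co-expressing, 1.096, 1.61 and 1.30 in TA-only and 0.282, 0.300 and 0.415 in SOX3-only wells. It was 2.33-fold above SOX3-only wells (adjusted p 0.0368, edgeR), and its 1.74-fold distance from TA-only wells was not called (adjusted p 0.138). The DUSP6 call against SOX3-only wells was lost in 11 of 17 alternatives, with every batch left out in turn among them. Without the wells over 5000 genes the adjusted p of DUSP6 was 0.0713 (edgeR).

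The ligand FGF8A was 9.74-fold below TA-only wells (0.217 ± 0.103 against 2.12 ± 0.718 UMIs per 10000, SD, n = 3, adjusted p 4.12e-05, edgeR). Its 2.67-fold distance from SOX3-only wells (0.0854 ± 0.0318) was not called (adjusted p 0.342), although the batch values of these 2 classes did not overlap, as was so for 7.44% of all tested genes. FGF17 (2.46-fold), the phosphatase DUSP4 (5.86-fold) and the transmembrane modulator FLRT3 (7.37-fold) were also below TA-only wells. The receptor FGFR4 was the 1 gene higher than in TA-only wells, with 1.70, 1.51 and 1.26 against 0.356, 0.546 and 0.900 (2.54-fold, adjusted p 0.0077), and it stood at 1.78, 1.87 and 1.88 in SOX3-only wells.

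Genes of the organizer, the dorsal signalling centre, were mixed. Of 13 tested, 3 (DKK1B, FOXA3 and LHX1A) were lower than in TA-only wells and 3 (NOTO, FOXD5 and DKK1B) higher than in SOX3-only wells, with median log2 differences of -1.08 and 1.201. LHX1A, a LIM-homeobox gene, stood at 0.101 ± 0.0599 UMIs per 10000 in co-expressing against 0.959 ± 0.471 in TA-only wells (SD, n = 3, adjusted p 2.18e-05, edgeR).

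FOXD5, a forkhead gene known in zebrafish from the early neural plate and tail bud, stood at 2.00, 2.76 and 2.50 UMIs per 10000 in co-expressing wells. The values were 1.44, 1.82 and 1.87 in TA-only wells and 1.26, 1.19 and 1.48 in SOX3-only wells. Of the 3 classes, co-expressing wells thus had the highest FOXD5 in every batch, without overlap with either reference. TA-containing wells with SOX3 at 5 to under 10, outside the 3 classes, stood higher still, at 3.84, 3.87 and 2.62. The difference was 0.87 from SOX3-only wells (SE 0.15, adjusted p 0.0144, edgeR) and 0.51 from TA-only wells, which was not called (SE 0.15, adjusted p 0.136). The former call was lost in 8 of 17 alternatives, with every batch left out in turn among them. A UMI of FOXD5 was present in 80.1% of co-expressing, 60.3% of TA-only and 58.1% of SOX3-only wells, and after thinning in 67.6%, 51.3% and 43.8%.

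On the ventral side, where BMP signals act, 5 of 21 tested genes were lower and 1 was higher than in TA-only wells, and 0 were called against SOX3-only wells (median log2 differences -0.28 and 0.03). The ventral repressor VED stood at 22.3, 14.6 and 23.4 UMIs per 10000 in co-expressing wells, 26.8, 22.9 and 32.7 in TA-only and 16.3, 15.2 and 22.2 in SOX3-only wells (1.37-fold below TA-only, adjusted p 0.00591, edgeR). BMP4, a BMP ligand gene, was 1.6-fold lower than in TA-only wells (1.39 ± 0.437 against 2.22 ± 0.535, SD, n = 3, adjusted p 0.0381), a call lost in 12 of 17 alternatives and among them without the wells over 5000 genes. DRL (draculin), a zinc-finger gene of lateral mesoderm, was 3.69-fold lower (0.974 against 3.59). ID1, an inhibitor of bHLH factors that responds to BMP, was the exception, at 33.8, 39.9 and 39.01 against 19.4, 16.2 and 23.3 (1.93-fold higher, adjusted p 1.16e-05), close to the 32.2, 34.1 and 36.9 of SOX3-only wells.

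Some genes of the neural and animal ectoderm were higher than in TA-only wells. Of 21 tested, 7 were higher and 2 lower than in TA-only wells (median log2 difference 0.11), and 0 were called by edgeR against SOX3-only wells (median -0.06). SOX19A, like SOX3 a SoxB1 gene, stood at 6.11, 5.50 and 7.20 UMIs per 10000 in co-expressing, 1.51, 1.32 and 1.52 in TA-only and 6.27, 6.88 and 7.86 in SOX3-only wells. It was 4.32-fold above TA-only wells (log2 difference 2.11, SE 0.11, adjusted p 2.39e-08, edgeR), and the difference of -0.16 from SOX3-only wells was not called (SE 0.10, adjusted p 0.999). After thinning, 94.9% of co-expressing, 48% of TA-only and 96.7% of SOX3-only wells had a UMI of SOX19A.

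SOX2, another SoxB1 gene, varied between batches, with 0.516, 0.150 and 0.867 UMIs per 10000 in co-expressing wells, 0, 0.0222 and 0.193 in TA-only and 0.492, 0.422 and 0.593 in SOX3-only wells. Co-expressing and TA-only values overlapped across batches, while within each batch co-expressing wells were higher (7.87-fold, adjusted p 0.0195, edgeR). SOX19B, a maternal SoxB1 gene, stood at 0.673 ± 0.210, 0.748 ± 0.287 and 1.04 ± 0.279 in co-expressing, TA-only and SOX3-only wells and was not called (SD, n = 3). CXCR4B, a chemokine receptor gene, stood at 9.94, 11.3 and 9.92 in co-expressing wells and 2.28, 3.41 and 3.61 in TA-only wells (3.39-fold higher, adjusted p 4.12e-07), against 10.1, 12.02 and 9.94 in SOX3-only wells.

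Among the 12 genes with the largest positive difference from TA-only wells were further ectodermal transcription factors. The homeobox gene PNX, expressed in posterior neural plate of zebrafish, stood at 0.485, 0.165 and 0.479 UMIs per 10000 against 0.0057, 0.120 and 0.0529 (6.25-fold, adjusted p 0.0478, edgeR). The PNX call was lost in 6 of 17 alternatives, among them without the closely agreeing wells of batches 1 and 2. LHX5, a LIM-homeobox gene of the forebrain, had 0.266, 0.105 and 0.312 in co-expressing wells, 0, 0 and 0.0378 in TA-only and 0.228, 0.111 and 0.380 in SOX3-only wells. PRDM14, a PR-domain transcriptional regulator, had means of 0.109 ± 0.048 against 0.0040 ± 0.0038 in TA-only wells (SD, n = 3, adjusted p 0.00638) and 0.129 ± 0.087 in SOX3-only wells.

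The protocadherin PCDH18B (8.11-fold), KAZALD2 (6.64-fold), PCP4L1 (7.71-fold), TOE1 (5.57-fold), the cathepsin gene CTSH (4.03-fold) and GSTAL (3.98-fold) completed that set with SOX2, SOX19A and CXCR4B. ZIC2B, a zinc-finger gene of the neural plate, stood at 13.1, 11.3 and 14.1 UMIs per 10000 in co-expressing, 8.04, 5.87 and 6.67 in TA-only and 14.8, 12.5 and 14.5 in SOX3-only wells (1.89-fold above TA-only, adjusted p 5.78e-06, edgeR). Its paralogue ZIC2A went the other way and was 7.65-fold below TA-only wells (0.560 against 4.24, adjusted p 9.3e-06), with 0.273 in SOX3-only wells. IRX7, an Iroquois homeobox gene, was the second neural list member below TA-only wells (1.08 against 2.03 UMIs per 10000, adjusted p 0.0239).

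Since SOX3 and TA meet in the tail bud at later stages, genes of the posterior body were listed separately. Of 16 tested, 10 were lower than in TA-only wells and 0 higher (median log2 difference -1.19), 5 were higher than in SOX3-only wells and 0 lower (median 0.97), and 11 lay between both references in all 3 batches. Over all tested genes 1.18% were lower than in TA-only wells, 0.379% higher than in SOX3-only wells and 5.47% between both. As said above, most genes called higher in TA-only than in SOX3-only wells lay between both as well. The 5, each also counted in a list above, were EVE1, MSGN1, TBX16, WNT8A and WNT8-2, the last of which may share reads with WNT8A. CDX4, a caudal homeobox gene that activates posterior Hox genes, stood at 0.264, 0.160 and 0.527 UMIs per 10000 in co-expressing wells, 1.13, 1.01 and 1.61 in TA-only and 0.202, 0.0625 and 0.140 in SOX3-only wells. It was 4.27-fold below TA-only wells (adjusted p 0.00122, edgeR), and its log2 difference of 1.17 from SOX3-only wells was not called (SE 0.33, adjusted p 0.455).

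WNT5B, a ligand gene of the tail bud, had 0.0236, 0.135 and 0.0385 UMIs per 10000 in co-expressing wells and passed neither test. SP5L, a Wnt target gene with a zinc-finger domain, had 2.34, 1.90 and 3.19 in co-expressing, 1.90, 0.781 and 3.04 in TA-only and 1.85, 1.39 and 1.66 in SOX3-only wells, highest in co-expressing wells in every batch and called in neither comparison (adjusted p 0.49 and 0.999, edgeR). CYP26A1, which degrades retinoic acid, had 1.11 ± 0.122, 0.984 ± 0.109 and 0.856 ± 0.0844 in co-expressing, TA-only and SOX3-only wells (SD, n = 3) and was not called. TNFRSF19, FGFR1A and VENT were not called either.

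Of 8 retinoic acid genes, 2 were lower than in TA-only wells and 1 was higher than in SOX3-only wells (median log2 differences 0.08 and 0.21). ALDH1A2, which makes retinoic acid in paraxial mesoderm, stood at 0.0989, 0.0898 and 0.157 UMIs per 10000 in co-expressing, 1.37, 0.937 and 1.51 in TA-only and 0.0073, 0.0013 and 0.0323 in SOX3-only wells. It lay without overlap between the references, 11.4-fold below TA-only (adjusted p 8.03e-05, edgeR) and 10.5-fold above SOX3-only wells (adjusted p 0.00584). Only 31 co-expressing and 6 SOX3-only wells had a UMI of ALDH1A2, so the latter fold rests on few wells. RDH10A, a retinol dehydrogenase gene, was 4.34-fold below TA-only wells (adjusted p 0.00192).

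Of 20 adhesion and migration genes, 4 were higher and 4 lower than in TA-only wells, and PCDH8 was the 1 called against SOX3-only wells (median log2 differences -0.30 and 0.02). The Snail repressors moved in opposite directions. SNAI1A stood at 5.17, 4.71 and 5.44 UMIs per 10000 in co-expressing and 13.3, 11.6 and 16.1 in TA-only wells (2.65-fold lower, adjusted p 4.65e-07, edgeR). SNAI2 stood at 4.79, 4.12 and 3.74 against 2.68, 2.38 and 1.88 (1.84-fold higher, adjusted p 9.86e-05), with 5.43, 5.72 and 4.398 in SOX3-only wells.

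The remaining genes named by the rule against SOX3-only wells were KIRREL3L (4.33-fold higher, an immunoglobulin superfamily gene), CYP27C1 (4.38-fold, a cytochrome P450 gene) and ZNF703 (4.82-fold, a zinc-finger repressor gene), with adjusted p 0.0221, 0.00173 and 0.0368 (edgeR). The calls of KIRREL3L and ZNF703 were lost without the wells over 5000 genes. RELT, a TNF receptor family gene, was 16.3-fold below TA-only wells (0.0155 against 0.250 UMIs per 10000) and, at 0.0449 in SOX3-only wells, lowest in the co-expressing class. A UMI of RELT was present in only 5 co-expressing, 22 TA-only and 18 SOX3-only wells.

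Levels above both references in all 3 batches were found for 3.37% of the tested genes and levels below both for 3.65%. Of the genes above both, 7 were called in 1 of the comparisons, FOXD5 against SOX3-only wells and CDKN1C, CTSH, ID1, MED22, PSMC1B and TOE1 against TA-only wells. CDKN1C, MED22 and PSMC1B were singled out after their values were seen. CDKN1C, a cyclin-dependent kinase inhibitor gene, stood at 1.64, 1.87 and 1.41 UMIs per 10000 in co-expressing wells, 0.912, 1.03 and 0.881 in TA-only and 1.22, 1.35 and 1.34 in SOX3-only wells. For each of the 7 the other comparison was not called. The calls of CDKN1C, CTSH, FOXD5, MED22, PSMC1B and TOE1 were lost in 6, 8, 8, 7, 10 and 7 of 17 alternatives. Those of CDKN1C, FOXD5, MED22 and PSMC1B were lost with every batch left out in turn. The call of ID1 was kept in every alternative.

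To place the co-expressing wells, the level of each gene that differed between the references was put on a scale with 0% at the SOX3-only and 100% at the TA-only level. The same reference sums chose and scaled these genes, so the places are descriptions. TA-only and SOX3-only wells differed in 2.78% of the tested genes, with 1.89% higher in TA-only and 73 genes (0.891%) higher in SOX3-only wells. Genes higher in TA-only wells had a median place of 16.2% (quartiles 8.13 and 25.4), 72.3% of them lay under 25% and 6 genes at 50% or more (on a log2 scale 33.5% and 27 genes). The 73 genes had a median place of 22.1% (quartiles 9.78 and 32.8). The log2 scale was the ratio of 2 edgeR log2 differences, those of co-expressing and of TA-only wells from SOX3-only wells. On it the medians were 33.99% and 16.2%, so the place of TA-side genes depends on the scale used. On both scales the median place of TA-side genes lay nearer to SOX3-only wells. Single genes differed: on the level scale NOTO lay at 68.3%, DUSP6 at 42.7%, EVE1 at 41.01%, SEBOX at 21.2%, MIXL1 at 8.81%, OSR1 at 5.26% and CXCR4B at 3.74%. On the log2 scale the same genes lay at 78.4%, 60.4%, 61.6%, 58.2%, 40.6%, 36.6% and 2.08%, which puts DUSP6, EVE1 and SEBOX nearer to the TA-only level.

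**Figure D4:**
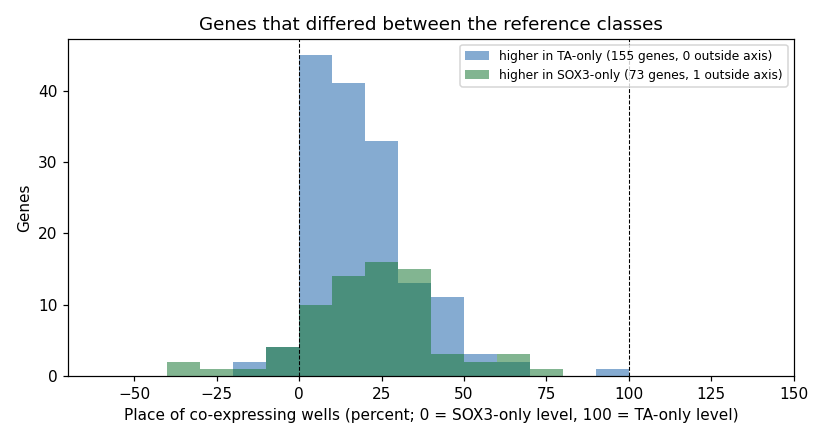
Place of the co-expressing wells between the references, for genes higher in TA-only wells and the 73 genes higher in SOX3-only wells. The horizontal axis gives the place in percent of the way from the SOX3-only level (0) to the TA-only level (100), the vertical axis the number of genes. Both distributions peak between 0% and 50%, with medians of 16.2% and 22.1%, and 1 gene lies outside the axis.

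TA-containing wells were also ordered by SOX3, which formed the classes, so that levels along the order are given without a test. SOX3 was under 5 in 38.5% of them, 5 to 10 in 65 wells (16.6%), 10 to 20 in 27.6% and 20 or more in 68 wells (17.3%). SOX19A rose along the order, with summed levels of 1.45, 3.61, 5.92 and 7.08 UMIs per 10000, and CXCR4B stood at 3.20, 6.76, 9.68 and 11.2. OSR1 (5.97, 0.921, 0.410 and 0.282) and MIXL1 (6.88, 1.87, 0.826 and 0.610) were already low in wells with intermediate SOX3.

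WNT11 declined more gradually, with 12.2, 7.70, 2.96 and 0.808 UMIs per 10000. EVE1 was highest at intermediate SOX3, at 7.97, 10.2, 4.66 and 3.35, and so was FOXD5, at 1.74, 3.36, 2.51 and 2.02. For both genes the intermediate wells lay above the wells with SOX3 under 5 and above both co-expressing groups in 2 of the 3 batches or more, as the panels by batch show. NOTO stood at 3.63, 3.26, 2.96 and 1.94, and in every batch it was lower at SOX3 of 20 or more than at SOX3 under 5. Only 7 wells of batch 2 had SOX3 at 20 or more, with EVE1 at 0.382 against 4.00 and 3.58 in batches 1 and 3.

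**Figure D5:**
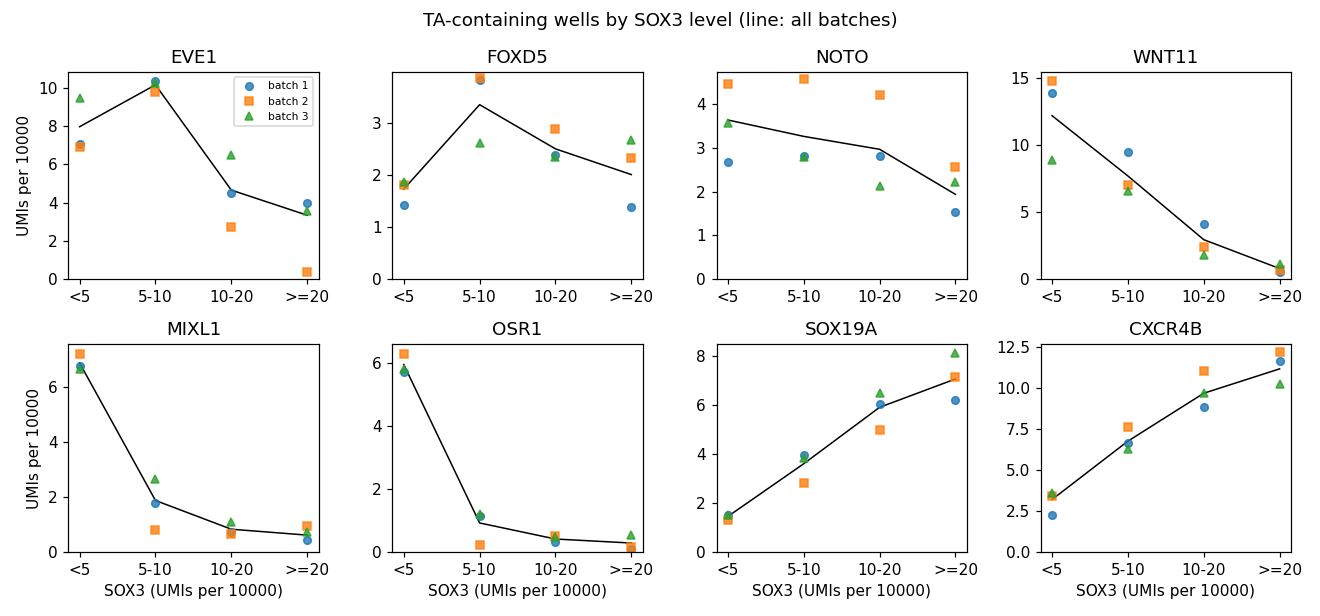
Levels of 8 genes (vertical axes, UMIs per 10000 of the summed wells) in TA-containing wells grouped by SOX3 (horizontal axes, UMIs per 10000). Points are batches and the line joins the sums over all batches. EVE1 and FOXD5 peak at SOX3 of 5 to 10, WNT11, MIXL1 and OSR1 decline, and SOX19A and CXCR4B increase.

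SOX3-containing wells can be ordered by TA in the same way. With TA at 0, above 0 but under 1, 1 to 2, 2 to 4 and 4 or more, EVE1 stood at 1.08, 2.75, 2.87, 5.61 and 5.33 UMIs per 10000. MIXL1 stood at 0.170, 0.314, 0.580, 0.742 and 1.26, and WNT11 at 0.420, 1.23, 1.42, 1.57 and 5.58. In the same groups SOX19A stayed between 6.03 and 6.81 and CXCR4B between 9.50 and 10.8. The co-expressing wells with TA at 4 or more numbered 30, and there WNT11 was 7.23, 6.57 and 2.96 in batches 1, 2 and 3.

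Single co-expressing wells differed in how many of 8 margin genes they held. EVE1, NOTO, TBX16 and WNT11 were not among the 8. After thinning, 61.9%, 60.2%, 75.6% and 54.5% of co-expressing wells had a UMI of these genes in turn. With each well thinned to 10000 UMIs, 56 co-expressing wells (31.8%) had none of MIXL1, OSR1, WNT8A, GATA5, NDR1, FGF8A, MSGN1 and SEBOX, 58 had 1, 31 had 2, 19 had 3 and 12 (6.82%) had 4 or more. Of 150 TA-only wells, 2 had none and 72% had 4 or more. Of 393 SOX3-only wells, 74.6% had none and 1 had 4 or more. At least 1 of the 8 genes was found in 57.8%, 59.4% and 82.2% of co-expressing wells in batches 1, 2 and 3, in 93.5%, 100% and 100% of TA-only wells and in 34.7%, 18.4% and 22.2% of SOX3-only wells. By this count co-expressing wells lay between the references in every batch. All 8 genes were called lower than in TA-only wells in these same data, so the count is a description.

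For single genes the thinned shares of co-expressing, TA-only and SOX3-only wells with a UMI were 61.9%, 79.3% and 25.9% for EVE1, and 32.95%, 90% and 9.41% for MIXL1. They were 54.5%, 93.3% and 18.3% for WNT11, and 18.2%, 78.7% and 4.07% for OSR1. Unthinned, EVE1 was found in 75%, 86.8% and 38.6%, and OSR1 in 35.2%, 85.4% and 9.09%. For SOX2 the thinned shares were 28.4%, 4.00% and 20.6% (unthinned 48.9%, 6.62% and 33.1%). Drawing fewer UMIs from a well can only lower such shares, so the fall on thinning was fixed in advance. The order of the classes was the same with and without thinning for EVE1, MIXL1, WNT11, OSR1 and SOX2. For NOTO (above) co-expressing and TA-only wells changed places.

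CHD (chordin), a dorsal BMP antagonist, and SZL (sizzled), a ventral target of BMP signalling, were used to ask whether both sides of the embryo were present, and were chosen as known markers outside the rule for named genes. After thinning, 30.1% of co-expressing wells had a UMI of CHD, 12.5% one of SZL and 3.41% both. The shares were 24.7%, 6.00% and 0.667% in TA-only wells and 14.2%, 11.2% and 0.763% in SOX3-only wells. Unthinned, 82 co-expressing wells had CHD, 49 had SZL, 20 had both and 65 had neither.

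Markers of other cells were present at low to moderate levels, and none of the defining markers was at 0 in any class. The 5 keratin markers of the enveloping layer, the outer epithelium, summed to 12.8, 5.67 and 8.66 UMIs per 10000 in co-expressing, 14.6, 11.9 and 9.88 in TA-only and 7.87, 5.29 and 7.497 in SOX3-only wells. By these markers 30.1% of co-expressing (23.8 to 37.3), 24.5% of TA-only (18.3 to 31.9) and 17.4% of SOX3-only wells (14.01 to 21.5) were enveloping-layer-like. These intervals pool the batches and cover counting error only. By batch the shares were 35.2%, 15.6% and 31.5% of co-expressing, 29.03%, 22.45% and 23.9% of TA-only and 22.8%, 9.155% and 21.1% of SOX3-only wells. In batch 2 TA-only wells had the highest share. Shares and sums thus differed in order: the summed keratins were lower in co-expressing than in TA-only wells in every batch, while the pooled share was higher. Whether the share follows the number of detected genes was not tested. Of 18 tested enveloping layer genes KRT18 was the 1 called, 1.70-fold below TA-only wells (adjusted p 0.00678, edgeR), and 0 were called against SOX3-only wells. CYT1, KRT4 and KRT8, also keratins, were higher than in SOX3-only wells without a call (means 0.696 against 0.392, 1.54 against 1.17, and 1.83 against 1.33 UMIs per 10000). With keratin-rich wells left out, EVE1 kept a log2 difference from SOX3-only wells of 1.75 (adjusted p 0.000705, edgeR) and NOTO 1.5 (0.000705). WNT11 kept 2.62 (3.3e-05) and MIXL1 2.36 (0.000428). Every class was smaller without the keratin-rich wells. Whether the calls below were lost through keratin levels or through smaller classes was not tested. Of the 31 calls 20 were lost without these wells, those of ALDH1A2, DDIT4, DKK1B, DUSP6, FOXD5, FSCN1A, GADD45BA, KIRREL3L, OSR1, PCDH8, TBX16, WNT8-2, WNT8A and ZNF703 among them. Against TA-only wells 34 calls were lost, with BMP4, CTSH, FGF17, FGFR4, FOXA, IRX7, KRT18, PNX, PSMC1B, RELT, SFRP1A, TCF7L1A and TOE1 among them.

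In the same way, without the wells over 5000 genes EVE1 kept 1.76 (adjusted p 0.00013, edgeR), NOTO 1.28 (0.00335), WNT11 2.29 (0.00013), MIXL1 2.08 (0.000998) and SEBOX 2.89 (5.3e-05). The 5 paraxial mesoderm markers summed to 0.349, 0.897 and 0.810 UMIs per 10000 in co-expressing, 9.27, 9.18 and 10.5 in TA-only and 0.207, 0.0344 and 0.121 in SOX3-only wells. The 4 endoderm markers summed to 0.570, 0.130 and 0.694 in co-expressing wells and 3.10, 3.58 and 4.79 in TA-only wells. Organizer markers (0.952, 1.38 and 0.729) and germ cell markers (2.32, 1.94 and 2.59) lay between the classes, and yolk syncytial layer markers stood at 0.643, 0.429 and 0.267. Ventral ectoderm markers (0.509, 0.598 and 0.533) and p53 and stress markers (0.570, 1.67 and 0.842) overlapped both references.

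The other lists held few calls. In the yolk syncytial layer list, NDR2 and the apolipoprotein gene APOC1L (1.87-fold) were the 2 of 7 lower than in TA-only wells, and NDR2 was the 1 higher than in SOX3-only wells. Of 12 germ cell genes, CXCR4B was higher and DDX4 (vasa) 1.88-fold lower than in TA-only wells. Of 11 surface ectoderm genes, TFAP2C (1.84-fold) was higher and KRT18 lower than in TA-only wells. Of 22 p53 and stress genes, DDIT4 and GADD45BA, both stress-inducible genes, were 2.38-fold and 3.36-fold lower than in TA-only wells and 1.43-fold and 2.02-fold higher than in SOX3-only wells, the latter calls both lost without the wells over 5000 genes.

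Of 15 maternal and pluripotency genes, FOXH1 was higher and VRTN 1.57-fold lower than in TA-only wells, with 0 called against SOX3-only wells. Of 20 S-phase genes, the replication helicase gene MCM6 was the 1 called (1.52-fold above TA-only wells, adjusted p 0.043, edgeR). The MCM6 call was lost in 9 of 17 alternatives, among them without the closely agreeing wells of batches 1 and 2. None of 25 genes of the G2 and M phases, 22 housekeeping and 81 ribosomal protein genes was called in either comparison. Over all tested genes 1.75% were called against TA-only and 0.379% against SOX3-only wells. CCNB3, a cyclin gene, stood at 2.20 ± 0.0943 UMIs per 10000 in co-expressing, 1.51 ± 0.302 in TA-only and 2.42 ± 0.440 in SOX3-only wells (SD, n = 3, adjusted p 0.0857 against TA-only wells).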

How the data were processed

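Strand-specific libraries read from the 5′ end by template switching were made from single picked cells, and the tag had 5 random bases, per the labels' protocols. The authors deposited raw UMI counts of 13902 genes in 1152 wells, and 0 columns lacked a sample. Bowtie and the genome build Zv9 are named in the submitters' processing notes. No reference sequence of that build was used, and no coordinates are given. With so short a tag, counts of the most abundant genes are compressed (highest count 975). No doublet caller was run. Whether any co-expressing well held more than a single cell was not tested.

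The classes held 176 co-expressing, 151 TA-only and 396 SOX3-only wells. Counts were summed per class and batch (1730255 to 8133433 UMIs per sum). All 9 sums entered 1 fit with edgeR 4.0.16 in R 4.3.3 (TMM, quasi-likelihood, batch as a block, Benjamini-Hochberg threshold 0.05), over genes with a UMI in at least 5% of the wells of the 3 classes. The block was kept because the labels tie wells to batches. SEs come from the log2 difference and √F of its test. Levels are UMIs per 10000, as mean ± SD of 3 batches. Enveloping-layer-like wells had a posterior over 0.5 for the higher of 2 Gaussian components of the mean log2 keratin level per well (scikit-learn 1.9.0). Thinning drew 10000 UMIs per well without replacement, and 7 shallower wells were left out. Alternatives used DESeq2 1.42.0, limma 3.58.1, other class rules and well filters.

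Tested on simulated sums of the comparison with TA-only wells (8189 genes, 200 changed), the fit found 94%, 78%, 40% and 26% of the genes given 8-, 4-, 2- and 1.5-fold changes, with 6 false calls.

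Genes were named by 1 rule: at most 12 per direction and comparison, ranked by difference, provided that they were called and that every batch moved alike (clone names skipped). Up to 4 called members of each list, or 2 where none was called, and all tested margin and posterior members were added. One gene named by the rule is not reported here. The members, lists and tests were chosen with earlier results of these data known.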

Additional observations from a re-analysis of the deposited data

How the results depend on the processing

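Numbers of called genes moved with the processing, and the causes were not tested. Against TA-only wells (46 genes higher, 1.18% of tested genes lower), no filter on low counts gave 120 and 1.07% of a longer gene list (a count over 1.5 times the main one), DESeq2 100 and 1.97%, and limma 75 higher. Only the 2 classes compared gave 28 higher. TA at 1 to under 3, an alternative chosen after seeing the data, gave 18 and 0.669%. It left only 9, 11 and 16 TA-only wells in batches 1, 2 and 3. Whether the narrower TA range or the smaller reference lowered these counts was not tested. Leaving out each batch gave 17 to 42 higher and 0.635% to 1.01% lower. Of the calls 33.6% held under all 17 alternatives.

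Against SOX3-only wells (31 higher), no filter gave 54, only the 2 classes compared 15, SOX3 at 15 or more 15, classes from thinned counts 20, without wells over 5000 genes 17, without enveloping-layer-like wells 11, TA at 1 to under 3 gave 1, SOX3 at 10 to under 20 (also chosen after seeing the data) 12, limma 5, and leaving out each batch 8 to 18. None of the 31 held under all 17, and HES6, NOTO and WNT11 were lost only with TA at 1 to under 3. The 0 lower genes became 1 (SHISA2) with no filter, with only the 2 classes compared and with DESeq2.

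Without the replicate block, 28 genes were higher than in TA-only wells, 13 higher than in SOX3-only wells, and 0.427% of genes lower in TA-only than in SOX3-only wells, so the batch block is part of those calls.

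Between the references (1.89% higher and 0.891% lower in TA-only wells), TA at 1 to under 3, again with few TA-only wells, gave 1.13% and 0.365%. SOX3 at 10 to under 20 gave 0.513% lower, no filter 1.05% lower and DESeq2 1.45% lower. Leaving out each batch gave 1.18% to 1.69% higher and 0.318% to 0.794% lower. The share of co-expressing wells (17.6%) was 12.3% with SOX3 at 15 or more and 21.7% with classes from thinned counts. TA at 2 or more UMIs changed no class, since every well already met it.

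Genes that changed sign in a comparison were never called in that comparison. FGFR1A, 0.01 against TA-only wells, was -0.065 with only the 2 classes, -0.35 to 0.48 with batches left out, -0.27 with SOX3 at 15 or more, -0.39 with thinned classes and -0.0049 with limma. Against SOX3-only wells it was -0.58 to 0.18 with batches left out and 0.22 with SOX3 at 10 to under 20. CYP26A1 against TA-only wells was -0.023 with SOX3 at 15 or more and -0.053 with thinned classes. TNFRSF19 was 0.019 against TA-only wells with SOX3 at 15 or more. Against SOX3-only wells it was -0.49 to 0.24 with batches left out, 0.35 with SOX3 at 15 or more, 0.085 with thinned classes and 0.030 without wells over 5000 genes. CA15B was -0.066 with SOX3 at 10 to under 20 and WNT5B -0.27 with SOX3 at 15 or more, both against SOX3-only wells.

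Depth limits what can be seen, and genes such as MSGN1 and LHX5 rested on few UMIs in a class.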
